A study of Mus musculus with 2 samples.

Results

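The genes described here encode proteins of the basement membrane, the thin sheet of matrix that lies under endothelium and around other cells. They are the laminin chains Lama4, Lama5, Lamb1, Lamb2 and Lamc1, the nidogens Nid1 and Nid2, and the heparan sulphate proteoglycans perlecan (Hspg2) and agrin (Agrn). The 9 genes were chosen by symbol out of 27999 in the deposited matrix, by a rule that uses no measured value, although earlier results of these data were known when they were chosen. They were followed through 2 single-cell libraries of mouse bone marrow and, within each library, through cell classes named from marker genes. All mice carried LepR-Cre;LSL-tdTomato on the C57Bl/6JCrl strain and were 3 to 4 months old. Here the leptin receptor gene drives Cre, and tdTomato, a red fluorescent protein, stays on in every cell that has made Cre and in its progeny. The LepR_tdT library is labelled as LepR-Cre;tdTomato+ marrow cells, and the EC library as marrow endothelial cells. The treatment and stain notes name tamoxifen by gavage for samples 1 to 3 and injected VE-Cadherin antibody for samples 3 to 4. Those numbers overlap, so which treatment, stain or gate each library had is uncertain.

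Each group was a single library, so there were no replicates and no test between populations was possible. Population and preparation cannot be told apart. All intervals are 95% and cover counting error only. Values are UMIs (unique molecular identifiers, each a counted molecule) summed over the cells of a class and given as CPM, the number per 1000000 UMIs of the class. They were not divided by transcript length, so levels are compared between classes for 1 gene and not between genes.

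The LepR_tdT library held 4250 cells with a median of 4347 UMIs, and the EC library 4536 cells with a median of 3084.5 UMIs. Clustering was done without the 9 genes or the other basement membrane genes described below. In the LepR_tdT library, 2932 cells (69.0%) were stromal-like, 210 osteolineage-like, 58 fibroblast-like, 17 pericyte-like and 60 endothelial-like. Another cluster of 272 cells, led by Kit and with 8 of 11 stromal markers raised, stayed unnamed and is called Kit-led. Its leading genes included the chondrocyte marker Comp and no stromal marker, which by the naming rule left it unnamed. In the EC library, 3660 cells (80.7%) were endothelial-like, of which 244 were arterial-like and 3416 sinusoidal-like. Of the sinusoidal-like cells, 1419 formed a cluster led by stress and early response genes such as Atf3 and Klf4. The labels were checked with Lepr, which lay at 608 CPM in all LepR_tdT cells and 16.4 CPM in all EC cells, and with Cdh5, the gene of VE-cadherin, at 9.48 and 793 CPM. Cells with at least 5 UMIs of both the stromal and the endothelial marker set numbered 32 in LepR_tdT and 98 in EC, and 42 barcode sequences were used by cells of both libraries (26.1 expected from independent draws). Free RNA was measured in 331237 LepR_tdT and 334810 EC barcodes outside the cell table that held at most 100 UMIs.

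Laminins are trimers of an alpha, a beta and a gamma chain that assemble in the cell before secretion. Many, but not all, of them then polymerise on cell surfaces. Nidogens link the laminin network to collagen IV, and perlecan and agrin add heparan sulphate chains that bind growth factors. In marrow, basement membrane surrounds arterioles as a continuous layer and sinusoids as a discontinuous one, and leptin receptor-positive stromal cells lie against the sinusoid wall.

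The genes lie apart from each other on GRCm38 (annotation GENCODE M21), except that the proteoglycan genes share a chromosome. Lama4 spans chr10:38965515-39110188, Lama5 chr2:180176373-180225859, Lamb1 chr12:31265234-31329644, Lamb2 chr9:108479736-108490530 and Lamc1 chr1:153218922-153332786. Nid1 spans chr13:13437551-13512269 and Nid2 chr14:19751265-19811787. Hspg2 spans chr4:137468769-137570630 and Agrn chr4:156165290-156197488. All 9 are annotated as protein coding.

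Promoter sequence is shown for Lamb1, the member with the largest ratio towards the stromal-like cells, and for Hspg2 and Lama5, whose ratios lay towards the endothelial-like cells. The stretches are taken from RefSeq (GRCm38.p6), run 5′ to 3′ on the gene's strand and end before the annotated start of the gene. Capitals mark GC boxes (GGGCGG on either strand). They cover chr12:31265043-31265233 on the plus strand for Lamb1, chr4:137468553-137468768 on the plus strand for Hspg2 and chr2:180225860-180226109 on the minus strand for Lama5.
Lamb1: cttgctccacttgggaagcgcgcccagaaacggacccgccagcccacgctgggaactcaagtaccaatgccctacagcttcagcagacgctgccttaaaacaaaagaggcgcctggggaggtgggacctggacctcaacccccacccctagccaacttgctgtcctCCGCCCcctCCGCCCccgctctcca
Hspg2: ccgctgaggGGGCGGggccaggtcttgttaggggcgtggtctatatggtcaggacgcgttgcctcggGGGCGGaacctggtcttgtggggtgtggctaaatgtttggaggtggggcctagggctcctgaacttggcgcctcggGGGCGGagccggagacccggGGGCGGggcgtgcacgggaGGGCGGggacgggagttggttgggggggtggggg
Lama5: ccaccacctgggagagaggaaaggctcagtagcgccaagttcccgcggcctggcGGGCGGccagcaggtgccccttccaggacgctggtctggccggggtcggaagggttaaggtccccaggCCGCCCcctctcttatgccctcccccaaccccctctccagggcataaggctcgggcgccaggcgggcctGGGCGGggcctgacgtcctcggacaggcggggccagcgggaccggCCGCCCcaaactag

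RefSeq promoter entries matched 6 of the 9 members, with 7 windows in all because Agrn has 2. In the 250 bases before the RefSeq start, GC boxes numbered 4 for Lama5, 5 for Hspg2, 12 and 2 for the windows of Agrn, 2 for Lamb1 and 1 for Nid1. The window of Lamb2 held none. Of 32851 windows of all genes, 32.7% held a GC box. An ETS core (CCGGAA on either strand, in 12.0% of all windows) was found in the Nid1 window. The searches of both strands for an EBF motif (TCCC and GGGA with 2 bases between them, 0.779% of all windows), an AP-1 site (TGANTCA, 6.75%), a forkhead site (GTAAACA, 3.17%) and a TATA box (TATAAA, 12.4%) matched no member window. None of these motifs contains another. GC boxes were thus found both before Lamb1 and before Hspg2 and Lama5.

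Between the main populations the 9 genes split evenly. Stromal-like cells had higher Lama4, Lamb1 and Nid2, endothelial-like cells had higher Lama5, Nid1 and Hspg2, and Lamb2, Lamc1 and Agrn passed in neither direction. Most cells of the endothelial-like class were sinusoidal-like, and its arterial-like cells are described separately below. A gene was called higher where the ratio of CPM was at least 2-fold and its interval excluded no difference. Over all 12851 genes with at least 20 UMIs in the 2 classes together, 38.9% were called, 21.3% towards the stromal-like and 17.6% towards the endothelial-like class. The median log2 ratio was 0.15 over the 9 genes and 0.10 over all measured genes. The 6 of 9 called stand beside that background as a description, and nothing particular to these genes is read from it.

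Of the laminin alpha chains, Lama4 (the alpha 4 chain, known from vessel walls) had 630 UMIs or 45.1 CPM (41.7 to 48.8) in stromal-like cells. Endothelial-like cells held 126 UMIs or 9.85 CPM (8.20 to 11.7). The ratio was 4.58-fold towards stromal-like cells (3.78 to 5.59), or 2.20 on the log2 scale. Lama5, which encodes the alpha 5 chain found in many adult basement membranes, went the other way. It had 88 UMIs or 6.30 CPM (5.05 to 7.76) in the stromal-like and 309 UMIs or 24.1 CPM (21.5 to 27.0) in the endothelial-like class, and was 3.83-fold higher in the latter (3.01 to 4.91). The alpha chains of the populations thus differed in opposite directions.

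Of the beta chains only Lamb1 was called. Lamb1, the beta 1 chain, had 1588 UMIs or 113.7 CPM (108.2 to 119.4) in stromal-like cells and 34 UMIs or 2.66 CPM (1.84 to 3.71) in endothelial-like cells. Its ratio of 42.8-fold (30.5 to 62.0), log2 5.42 (4.93 to 5.95), was the largest of the 9 genes. Without the stress-led cluster it was 4.65 on the log2 scale, which moves the fold by more than 1.5 times. Subtracting free RNA at 10% of UMIs gave 6.22. Lamb2, the beta 2 chain, was close to even, at 44.7 CPM (41.2 to 48.3) in the stromal-like and 40.3 CPM (36.9 to 44.0) in the endothelial-like cells. Its log2 ratio was 0.15 (-0.02 to 0.32). Lamc1, the gamma 1 chain shared by most laminins, lay at 102.9 CPM (97.6 to 108.3) in the stromal-like and 52.7 CPM (48.8 to 56.9) in the endothelial-like cells. At 1.95-fold (1.78 to 2.14) it stayed just under the threshold of 2-fold.

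The nidogens also moved in opposite directions. Nid1 had 1610 UMIs or 115.3 CPM (109.7 to 121.0) in the stromal-like and 4017 UMIs or 313.9 CPM (304.3 to 323.8) in the endothelial-like cells. It was 2.72-fold higher in endothelial-like cells (2.57 to 2.89). Nid2 had 579 UMIs or 41.5 CPM (38.2 to 45.0) in stromal-like cells against 57 UMIs or 4.45 CPM (3.37 to 5.77) in endothelial-like cells. It was 9.31-fold higher in stromal-like cells (7.08 to 12.4). The nidogen ratios thus had opposite signs, with the endothelial-like level of Nid2 below that of free RNA (9.08 CPM).

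Perlecan showed the largest ratio towards the vessels. Hspg2 had 447 UMIs or 32.0 CPM (29.1 to 35.1) in the stromal-like and 3871 UMIs or 302.5 CPM (293.0 to 312.2) in the endothelial-like class, and was 9.45-fold higher in the latter (8.57 to 10.4). With free RNA subtracted its log2 ratio went from -3.24 to -3.45. Agrn, known for clustering receptors at the neuromuscular junction, had 211 UMIs or 15.1 CPM (13.1 to 17.3) against 300 UMIs or 23.4 CPM (20.9 to 26.2). Its log2 ratio of -0.63 (-0.89 to -0.38) did not reach 2-fold.

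**Figure D1:**
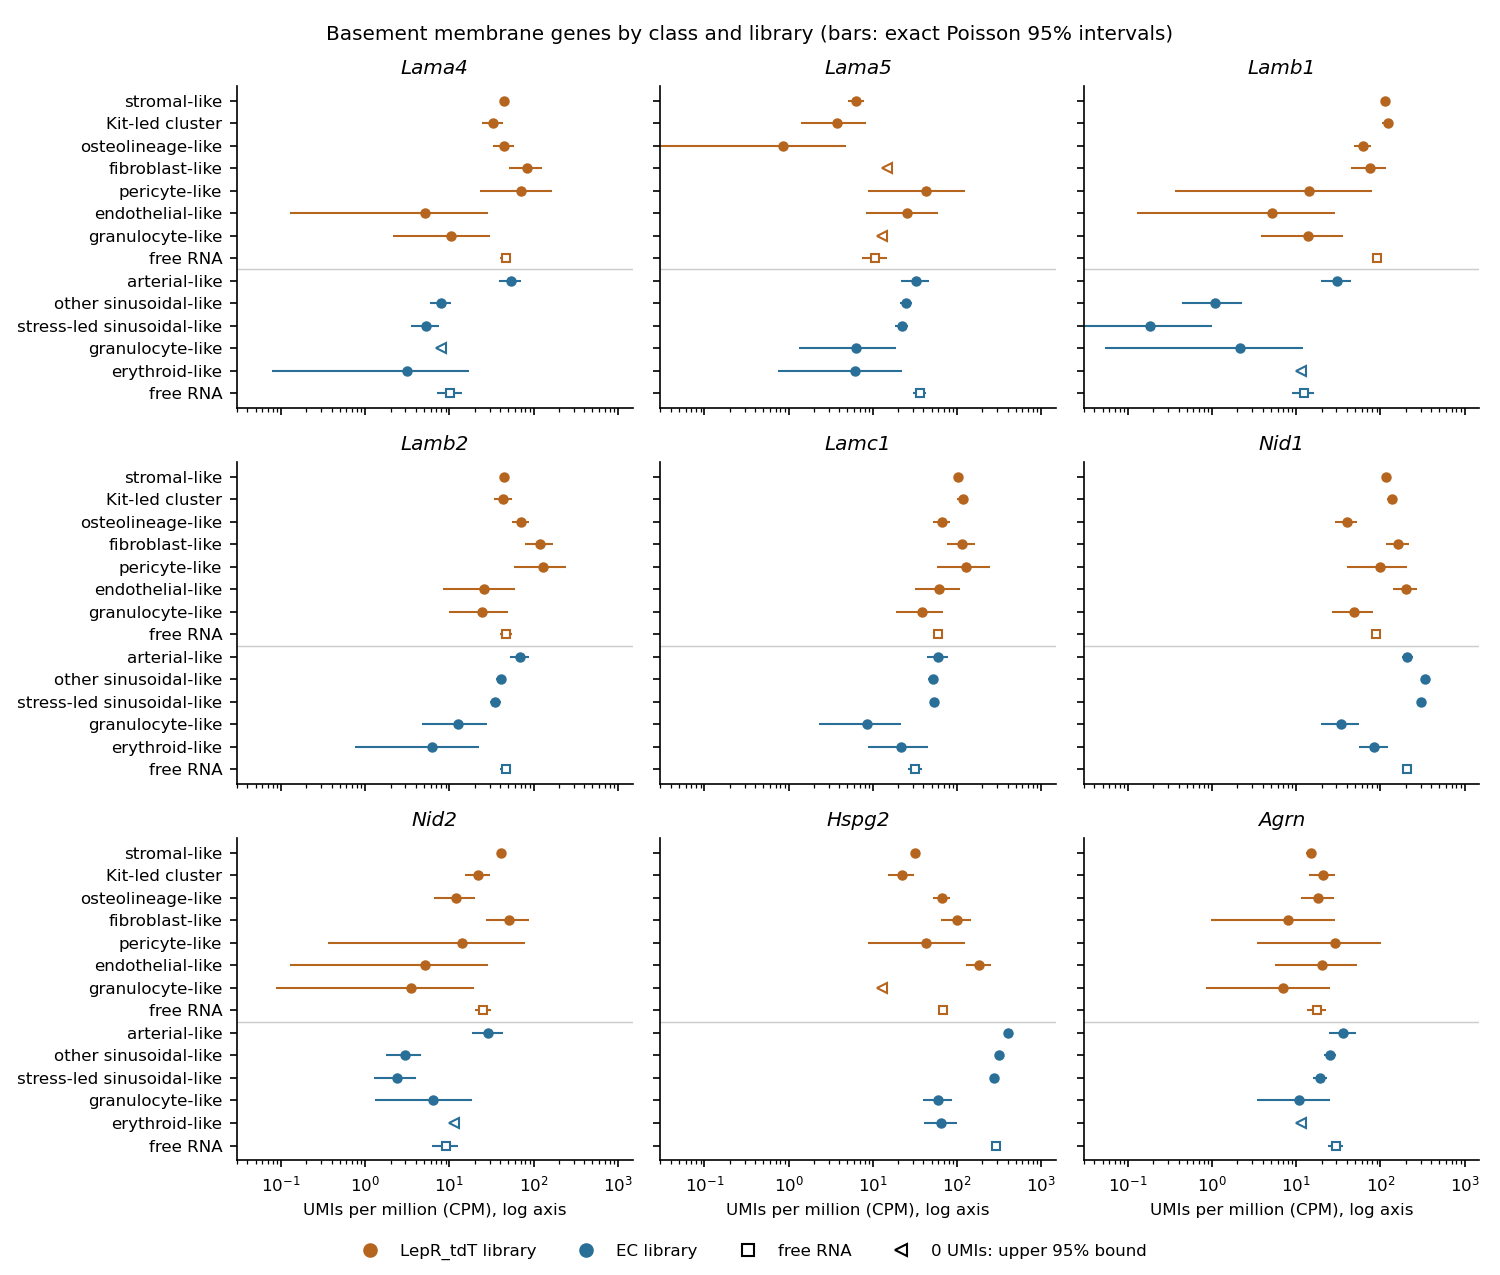
Level of each gene in CPM (log axis) by cell class, for the LepR_tdT library above the line and the EC library below it. Points are class sums, bars exact Poisson 95% intervals (cut at the left edge of the axis), squares free RNA, and triangles the upper bound where a class held 0 UMIs. Lamb1 lies at 113.7 CPM in stromal-like cells and below 2 CPM in both groups of sinusoidal-like cells, and Hspg2 lies higher in every endothelial-like class than in stromal-like cells.

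The whole libraries, compared with no clustering, gave the same split of the 9 genes. Lama4 (log2 2.16), Lamb1 (5.39) and Nid2 (3.08) were higher in LepR_tdT, and Lama5 (-2.04), Nid1 (-1.42) and Hspg2 (-3.08) in EC. Over all 13456 measured genes 20.9% were higher in LepR_tdT and 17.6% in EC. Lamb2 (0.27), Lamc1 (0.97) and Agrn (-0.47) passed in neither direction.

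The same contrast could be read inside the LepR_tdT library, whose 60 endothelial-like cells shared preparation and sequencing with the stromal-like cells. Hspg2 was higher in these endothelial-like cells at 184 CPM (129 to 255), from 36 UMIs, and 5.75-fold the stromal-like level (3.98 to 8.08). Lama5 rested on 5 UMIs and was 4.06-fold higher (1.28 to 9.83). Lama4, Lamb1 and Nid2 had 1 UMI each in the 60 cells, and were higher in stromal-like cells by 8.82-fold (1.58 to 349), 22.2-fold (3.99 to 879) and 8.11-fold (1.45 to 321). Over all 11684 measured genes 8.94% were higher in the endothelial-like and 10.1% in the stromal-like cells. Nid1 was 199 CPM (142 to 273) in these cells, 1.73-fold the stromal-like level (1.22 to 2.38), and passed in neither direction.

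The signs of the 6 genes called between the libraries were thus also those inside 1 library, on few UMIs. Of the 60 cells, 23 also carried at least 5 UMIs of stromal markers. Without the mixed cells Hspg2 (log2 2.80) and Lama5 (2.60) stayed higher in endothelial-like cells, and Lama4, at -2.24 (-7.54 to 0.25), was no longer called. Lamb1 and Nid2 then had 0 UMIs, and against the floor of 3 UMIs their log2 ratios were at most -1.98 and -0.53. The bound for Nid2 does not reach a 2-fold difference. Lamb2, Lamc1 and Agrn had 5, 12 and 4 UMIs, with intervals that included no difference.

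**Figure D2:**
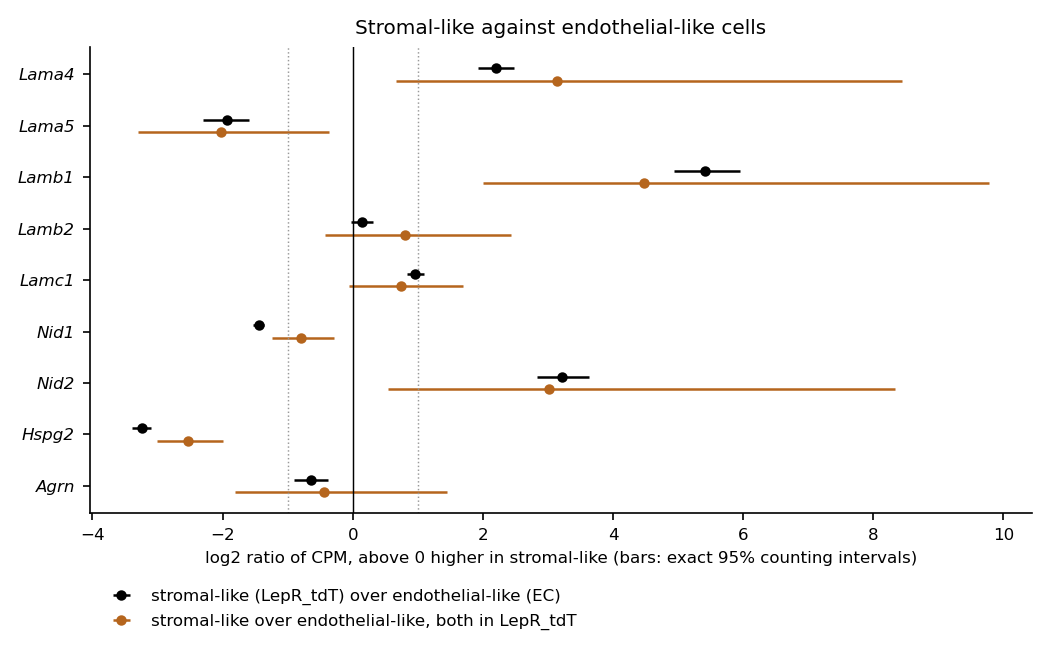
Log2 ratio of CPM for each gene, stromal-like over endothelial-like cells, with exact 95% counting intervals. Black points compare the libraries and brown points the classes within LepR_tdT, and dotted lines mark a 2-fold ratio. The point estimates of all 9 genes have the same sign in both comparisons, and the intervals within LepR_tdT are wide.

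Levels in free RNA and in blood cells that should lack these genes were set beside those of each class. In the EC library Nid1 lay at 205 CPM and Hspg2 at 287 CPM in free RNA, beside 313.9 and 302.5 CPM in endothelial-like cells. Granulocyte-like cells of that library held Nid1 at 34.1 CPM (19.5 to 55.3) and Hspg2 at 59.6 CPM (39.6 to 86.2), both below endothelial-like cells. Of these 52 granulocyte-like cells, 10 carried both the stromal and the endothelial marker set. Nid1 and Lamc1 (52.7 CPM against 31.5) were above free RNA in endothelial-like cells, and Hspg2 was level with it. Lama5 was below it (24.1 CPM against 36.3), and Lamb2 (40.3 against 46.5) and Agrn (23.4 against 29.5) had overlapping intervals with it. Lama4 lay at 9.85 CPM against 10.2, while Lamb1 (2.66 against 12.2) and Nid2 (4.45 against 9.08) were below free RNA. For 7 of the 9 genes the level in the class as a whole was therefore not above free RNA. Endothelial-like cells were 80.7% of the cells of the EC library and may themselves feed its free RNA. The comparison thus cannot show whether they express a gene, and where the free RNA came from was not tested.

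In the LepR_tdT library, Lamb1 (90.6 CPM in free RNA), Lamc1 (60.1), Nid1 (88.5) and Nid2 (25.1) were above free RNA in stromal-like cells. Lama4 (46.7) and Lamb2 (47.0) were level with it. Hspg2, at 69.1 CPM in free RNA, was above its stromal-like level, and Lama5 (10.8) and Agrn (17.6) had intervals that overlapped theirs. Granulocyte-like cells of LepR_tdT held Lamb1 at 13.9 CPM (3.80 to 35.7) and Nid1 at 48.7 CPM (26.7 to 81.8), below stromal-like cells, and 0 UMIs of Hspg2 (upper bound 12.8 CPM). Stromal markers summed to 4638 CPM in these granulocyte-like cells (11 of 11 genes with UMIs), against 22305 CPM in stromal-like cells. The part of stromal RNA in this background was not tested. Subtracting free RNA at 10% of UMIs changed no call among the 9 genes in the stromal-like to endothelial-like comparison.

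At equal depth (each cell thinned to 1000 UMIs) a UMI of Nid1 was found in 27.4% of endothelial-like EC cells (26.0 to 28.9) and in 10.4% of stromal-like cells (9.29 to 11.5). Before thinning the shares were 61.5% and 39.4%, at median depths of 3408.5 and 4621.5 UMIs. For Hspg2 the thinned shares were 26.8% (25.3 to 28.3) and 3.42% (2.80 to 4.15), from 60.6% and 13.7% at full depth. Lamb1 was seen in 10.3% of thinned stromal-like cells (9.23 to 11.5) and in 0.223% of endothelial-like cells (0.0963 to 0.439), from 39.6% and 0.765%. Thinning left out 12 stromal-like and 72 endothelial-like cells. Granulocyte-like EC cells (median 5776.5 UMIs, 10 left out) gave 16.7% (6.97 to 31.4) for Hspg2 and 2.38% (0.0603 to 12.6) for Nid1, so the Hspg2 share of endothelial-like cells lay inside the granulocyte-like interval. Erythroid-like EC cells (median 878 UMIs, 47 left out) gave 14.3% (5.43 to 28.5) for Nid1, an interval that includes its endothelial-like share, and 4.76% (0.582 to 16.2) for Hspg2. Granulocyte-like LepR_tdT cells (median 4785 UMIs, 13 left out) gave 8.0% (0.984 to 26.0) for both Nid1 and Lamc1, which includes the stromal-like shares.

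The other shares after thinning followed the CPM. In stromal-like cells they were 10.1% for Lamc1, 4.90% for Lamb2, 4.79% for Lama4, 4.04% for Nid2, 1.99% for Agrn and 0.685% for Lama5. In endothelial-like cells they were 5.77% for Lamc1, 4.26% for Lamb2, 2.62% for Agrn, 2.40% for Lama5, 1.06% for Lama4 and 0.446% for Nid2. The granulocyte-like EC share of Lama5 was 4.76% (0.582 to 16.2), from 42 thinned cells of a class that includes mixed cells. That interval includes the endothelial-like share and is too wide to show whether the share was above background. Among stromal-like cells the ratio of variance to mean of the thinned counts, which is 1 for Poisson counts, was 0.980 (Lama4) to 1.06 (Nid1). Thinning itself moves this ratio towards 1, so it cannot show whether the genes are spread evenly over these cells. At full depth at least 1 UMI of any of the 9 genes was found in 86.9% of stromal-like and 89.2% of endothelial-like cells, and after thinning in 40.2% and 54.9%, beside 19.0% (8.60 to 34.1) of granulocyte-like and 21.4% (10.3 to 36.8) of erythroid-like EC cells.

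**Figure D3:**
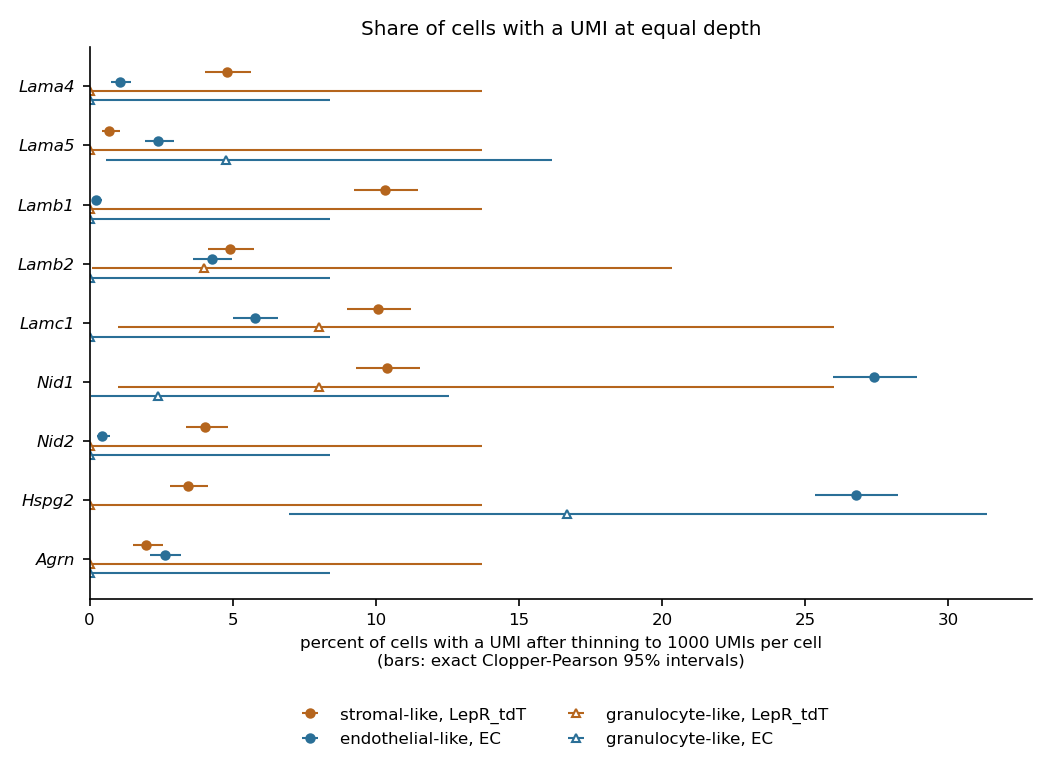
Percent of cells with a UMI of each gene after thinning to 1000 UMIs per cell, with exact Clopper-Pearson 95% intervals. Filled circles are stromal-like (LepR_tdT) and endothelial-like (EC) cells, and open triangles the granulocyte-like cells of each library as background. Nid1 and Hspg2 reach 27.4% and 26.8% of endothelial-like cells, and Lamb1 10.3% of stromal-like cells.

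Within the EC library the arterial-like cells had 3 of the 9 genes at higher levels than the sinusoidal-like cells, and these were the 3 that separated stromal-like from endothelial-like cells in the stromal direction. Lama4 had 46 UMIs or 53.3 CPM (39.1 to 71.2) in the arterial-like against 80 UMIs or 6.70 CPM (5.32 to 8.34) in the sinusoidal-like cells, 7.96-fold higher (5.41 to 11.6). Lamb1 had 26 UMIs or 30.2 CPM (19.7 to 44.2) against 8 UMIs or 0.670 CPM (0.289 to 1.32), 45.0-fold higher (19.8 to 115), or 5.49 on the log2 scale. With free RNA subtracted the sinusoidal-like cells were left with no Lamb1 UMIs. The log2 ratio was then at least 6.85, against the floor of 3 UMIs. Nid2 had 25 UMIs or 29.0 CPM (18.8 to 42.8) against 32 UMIs or 2.68 CPM (1.83 to 3.78), 10.8-fold higher (6.14 to 18.8). Over all 11102 measured genes 6.96% were higher in the arterial-like and 3.86% in the sinusoidal-like cells. The arterial-like levels of the 3 genes were above the free RNA of the library (10.2, 12.2 and 9.08 CPM). The sinusoidal-like levels of Lamb1 and Nid2 were below it, and that of Lama4 overlapped it. For Lama4 and Nid2 the arterial-like intervals included the stromal-like levels in LepR_tdT. For Lamb1 the arterial-like interval lay below the stromal-like level.

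None of the 9 genes was called higher in sinusoidal-like cells. Nid1 was nearest, at 208.7 CPM (179.4 to 241.6) in the arterial-like and 321.5 CPM (311.4 to 331.8) in the sinusoidal-like cells, 1.54-fold higher in the latter (1.33 to 1.80). Hspg2 was 408 CPM (367 to 453) in the arterial-like and 295 CPM (285 to 305) in the sinusoidal-like cells, 1.38-fold (1.24 to 1.54). Lamb2 was 1.79-fold (1.34 to 2.35), Agrn 1.59-fold (1.06 to 2.32), Lama5 1.38-fold (0.900 to 2.04) and Lamc1 1.13-fold (0.833 to 1.51) the sinusoidal-like level. With TMM scaling the ratios of these subclasses fell by 0.20 on the log2 scale, which turned Lamc1 from 0.18 to -0.02 and changed no call.

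Markers of neighbouring cell types were checked in these cells. The pericyte marker genes Acta2, Myh11, Notch3, Cnn1 and Higd1b had 0 UMIs in both arterial-like and sinusoidal-like cells. The whole pericyte set of 8 genes, 3 of them with UMIs, summed to 139 CPM in the arterial-like and 66.3 CPM in the sinusoidal-like cells, mostly Mcam. The stromal set summed to 228 CPM in the arterial-like and 351 CPM in the sinusoidal-like cells. Of the fibroblast set, Dpt, Clec3b and Igfbp6 had 0 UMIs in arterial-like cells, and its sum of 2412 CPM against 121 CPM was nearly all Ly6c1. The mixed cells numbered 2 arterial-like and 86 sinusoidal-like, and without them the same 3 genes were called.

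The stress-led cluster differed little from the other sinusoidal-like cells in these genes. Of the 8 measured, none was called in either direction (background 2.49% of 10952 genes, 1.84% and 0.648% by direction). The log2 ratios ran from -0.59 for Lama4 (-1.30 to 0.09) to 0.07 for Lamc1 (-0.17 to 0.30). Hspg2 was 272 CPM (259 to 286) in the stress-led and 314 CPM (301 to 328) in the other cells, and Nid1 was 307 CPM (292 to 322) and 334 CPM (320 to 348). Lamb1 had 1 UMI in the stress-led cells and 7 in the others, too few to compare.

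Within LepR_tdT, osteolineage-like cells, which carry markers of bone-forming cells, had less nidogen and more perlecan RNA than stromal-like cells. Nid1 was 39.9 CPM (29.2 to 53.1) in osteolineage-like cells and 2.89-fold higher in stromal-like cells (2.16 to 3.97), and Nid2, at 12.1 CPM (6.63 to 20.3), was 3.42-fold higher there (2.02 to 6.29). Hspg2 was 65.8 CPM (51.9 to 82.4) in osteolineage-like cells, 2.06-fold the stromal-like level (1.59 to 2.63) and level with the free RNA of that library (69.1 CPM). Lama5, with 1 UMI in osteolineage-like cells, was 7.27-fold higher in stromal-like cells (1.27 to 291). Over all 11720 measured genes 4.63% were higher in osteolineage-like and 6.41% in stromal-like cells. Markers of other cell types were also higher in this class, with the 8 erythroid markers at 3353 CPM summed (7 with UMIs, nearly all haemoglobin genes) against 187 CPM in stromal-like cells. The 7 chondrocyte markers (4 with UMIs) summed to 380 against 39.1 CPM and the 5 Schwann markers (1 with UMIs) to 564 against 200 CPM. Their part in these ratios was not tested.

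The remaining chains moved by less than 2-fold between these classes. On the log2 scale, osteolineage-like over stromal-like, Lama4 was -0.03 (-0.47 to 0.38), Lamb1 -0.89 (-1.25 to -0.54), Lamb2 0.65 (0.30 to 0.99), Lamc1 -0.64 (-0.997 to -0.31) and Agrn 0.27 (-0.45 to 0.92). With finer clusters (resolution 1.0, 282 osteolineage-like cells) the differences in Nid1 and Nid2 shrank, by 0.87 and 0.92 on the log2 scale. Neither Nid1, Nid2 nor Hspg2 was then called.

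The other classes of LepR_tdT were compared with stromal-like cells after the clusters had been seen. In the Kit-led cluster none of the 9 genes was called (background 6.98% of 11740 genes, 3.25% higher and 3.72% lower). Nid2 was nearest, at 22.0 CPM (15.3 to 30.6), log2 -0.91 (-1.45 to -0.42). Fibroblast-like cells had higher Lamb2, at 118.9 CPM (80.2 to 169.7) from 30 UMIs, log2 1.41 (0.83 to 1.94). They also had higher Hspg2, at 99.1 CPM (64.1 to 146) from 25 UMIs, log2 1.63 (0.99 to 2.21), with the free RNA level of 69.1 CPM inside its interval (background 8.13% of 11633 genes, 4.64% higher and 3.49% lower). These cells carried osteolineage markers as well (4236 CPM summed, against 376 CPM in stromal-like cells), and the part of those in the result was not tested.

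The 17 pericyte-like cells, vessel-wall cells by their markers, gave few UMIs. Lama5 rested on 3 UMIs (42.7 CPM, 8.82 to 125) and Lamb2 on 9 (128 CPM, 58.6 to 243), and both were called higher than in stromal-like cells, at log2 2.76 (0.46 to 4.36) and 1.52 (0.39 to 2.45). Lamb1, with 1 UMI, was called lower at -3.00 (-8.30 to -0.52). The background was 9.5% of 11620 genes, 5.77% higher and 3.73% lower. TMM scaling lowered every ratio of this comparison by 0.40 on the log2 scale and ended the call of Lamb2 (1.12), leaving 1 of the 2 higher calls. Endothelial markers summed to 584 CPM (4 of 10 genes with UMIs) in these cells against 27.1 CPM in stromal-like cells, arterial markers to 955 against 29.8 CPM, and 2 of the 17 cells were mixed. The part of endothelial RNA in the calls was not tested.

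**Figure D4:**
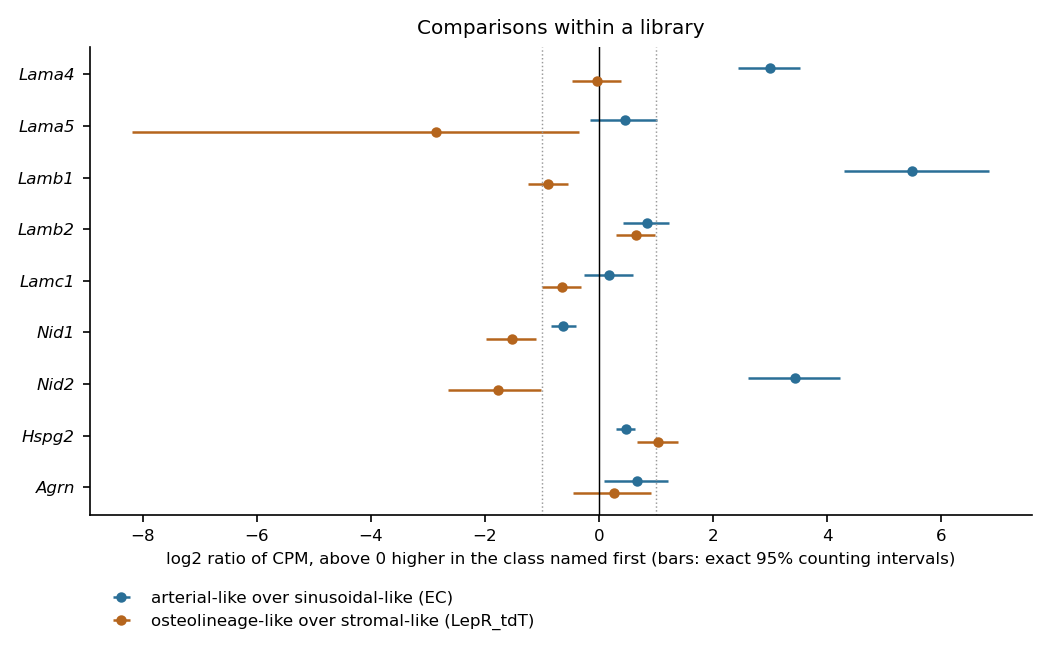
Log2 ratio of CPM with exact 95% counting intervals for arterial-like over sinusoidal-like cells of EC (blue) and osteolineage-like over stromal-like cells of LepR_tdT (brown), with dotted lines at 2-fold. Lama4, Lamb1 and Nid2 stand at 2.99, 5.49 and 3.43 in the arterial direction, while Nid1 (-1.53) and Nid2 (-1.77) lie towards stromal-like cells in the bone-forming comparison.

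Finer clusters did not divide the stromal-like cells by these genes. At resolution 1.0 the stromal-like clusters held 1773, 1009 and 59 cells, and no member was called between any of them and the rest of the class. Lamb1, for example, was 112.6, 115.1 and 103.4 CPM in the 3 clusters, with overlapping intervals. The arterial-like cluster, with 335 cells at that resolution, kept Lama4 (log2 2.90 over the rest of the endothelial-like cells), Lamb1 (6.08) and Nid2 (3.27) as its called genes. The same 3 genes were called lower in the stress-led cluster of 1385 cells, with Lama4 at -1.64, Nid2 at -1.46 and 0 UMIs of Lamb1. In a sinusoidal-like cluster of 1538 cells Lamb1 (-2.17) and Nid2 (-1.22) were called lower, each against a rest of the class that includes the arterial-like cells. At this resolution the stress-led cluster and an endothelial-like cluster of 60 cells did not meet the rule for a sinusoidal-like name. The arterial-like to sinusoidal-like comparison at resolution 1.0 was therefore made without them.

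The chain makeup was described as the share of each chain among the UMIs of its family, compared between classes. These are shares of RNA counts and do not measure the makeup of the laminin trimers. Among alpha chain UMIs, Lama4 made up 56.8% in stromal-like cells (53.8 to 59.7), 59.0% in arterial-like cells (47.2 to 70.0) and 21.5% in sinusoidal-like cells (17.4 to 26.0). Lama5 made up 7.93% (6.41 to 9.69), 35.9% (25.3 to 47.6) and 75.5% (70.8 to 79.8) in the same order. Lama2, the alpha chain known from muscle and nerve, made up 31.7% in stromal-like cells (28.9 to 34.5) and 57.2% in the Kit-led cluster (49.0 to 65.2). It had 0 of 450 alpha UMIs in endothelial-like EC cells, with an upper bound of 0.816%. In EC free RNA Lama4 made up 21.1% (15.2 to 27.9) and Lama5 74.9% (67.7 to 81.2), so the sinusoidal-like alpha makeup could not be told apart from free RNA. The arterial-like share of Lama4 was close to the stromal-like one, with a larger share of Lama5 and 0 of 78 alpha UMIs from Lama2 (upper bound 4.62%).

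Among beta chain UMIs, Lamb1 made up 71.8% in stromal-like (69.8 to 73.6), 73.7% in Kit-led (67.9 to 78.9), 46.7% in osteolineage-like (38.6 to 55.0) and 38.8% in fibroblast-like cells (25.2 to 53.8). It made up 30.6% in arterial-like cells (21.1 to 41.5) and 1.72% in sinusoidal-like cells (0.744 to 3.35). Lamb2 made up nearly all of the remainder. Nid2 supplied 26.5% of nidogen UMIs in stromal-like cells (24.6 to 28.4), 12.2% in arterial-like cells (8.05 to 17.5) and 0.827% in sinusoidal-like cells (0.566 to 1.17). In EC free RNA the Lamb1 share was 16.5% (12.2 to 21.6) and the Nid2 share 4.24% (2.92 to 5.94), above the sinusoidal-like and below the arterial-like shares, with overlapping intervals for Lamb1 in the arterial-like case. In LepR_tdT free RNA the shares were 58.0% for Lamb1 (53.7 to 62.3) and 22.1% for Nid2 (18.0 to 26.6). Both shares in arterial-like cells lay between those of stromal-like and sinusoidal-like cells.

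**Figure D5:**
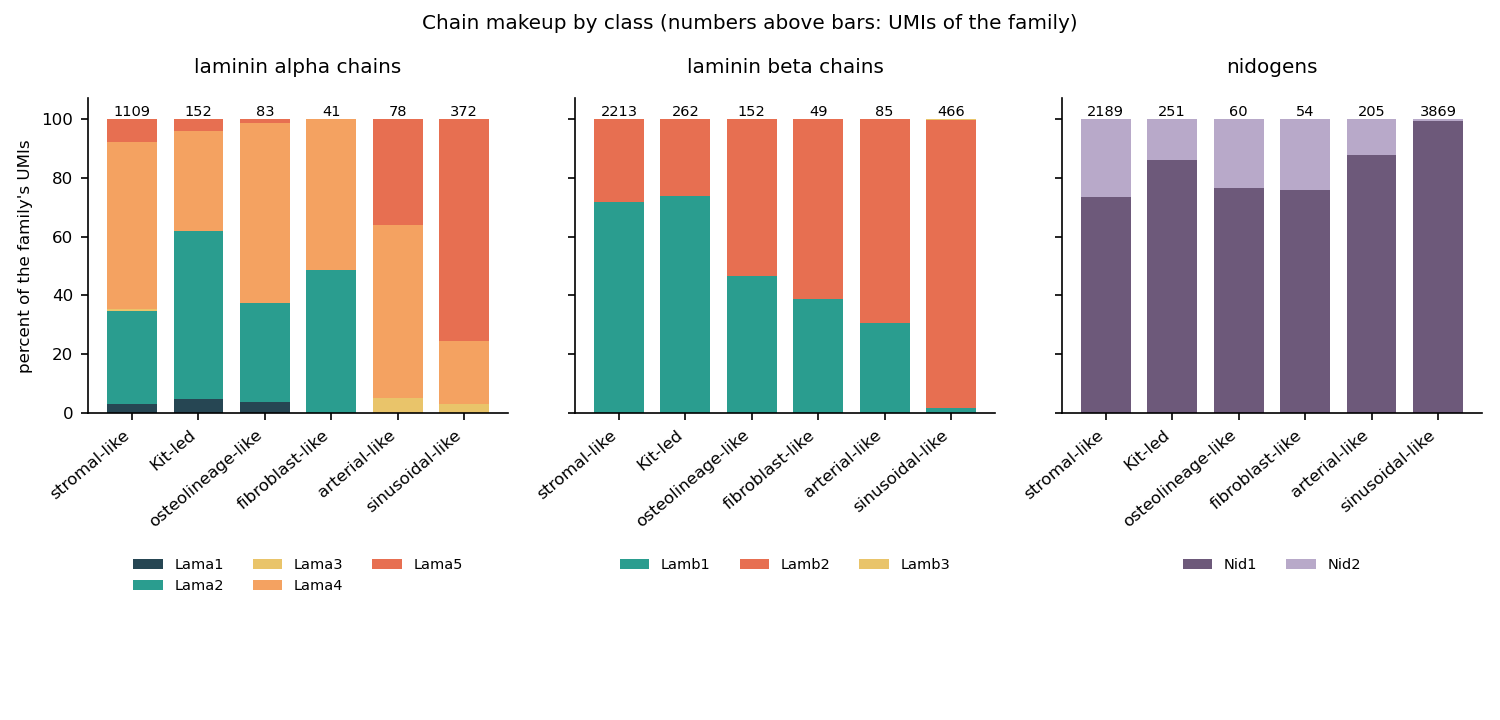
Percent of the UMIs of the laminin alpha chains, laminin beta chains and nidogens that came from each gene, by class, with the family's UMI number above each bar. The Lamb1 share is 71.8% in stromal-like, 30.6% in the arterial-like and 1.72% in the sinusoidal-like cells.

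Cells with UMIs of an alpha, a beta and a gamma chain together were counted from the member chains only. Lama4 or Lama5 served as alpha, Lamb1 or Lamb2 as beta and Lamc1 as gamma chain. Lama2 was left out, so cells with Lama2 as their only alpha chain are missing from the counts. Such cells were 131 of 2932 in the stromal-like class (4.47%, 3.75 to 5.28) and 23 of 272 in the Kit-led cluster (8.46%, 5.44 to 12.4). The number was 8 of 244 in arterial-like cells (3.28%, 1.43 to 6.36) and 11 of 3416 in sinusoidal-like cells (0.322%, 0.161 to 0.575). Lama4, Lamb1 and Lamc1 together were seen in 96 stromal-like cells, and Lama5, Lamb2 and Lamc1 together in 2 stromal-like and 7 sinusoidal-like cells. After thinning 1 stromal-like, 2 Kit-led and 0 sinusoidal-like cells held all 3 kinds of these member chains. A separate draw of the sinusoidal-like cells outside the stress-led cluster gave 1 cell. These counts are too few to show whether the classes differ at equal depth.

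The counts of listed genes that follow stand beside the shares over all measured genes, which were 21.3% towards stromal-like and 17.6% towards endothelial-like cells, 6.96% towards arterial-like and 3.86% towards sinusoidal-like cells, and 4.63% towards osteolineage-like and 6.41% towards stromal-like cells. The lists are described only, and nothing particular to them is read from the counts. Other laminin alpha chains had few UMIs apart from Lama2. Lama2 had 351 UMIs in the stromal-like and 0 in the endothelial-like cells, which puts the log2 ratio at 6.74 or more against a floor of 3 UMIs in the class. Lama1 had 35 and 0 UMIs (at least 3.42), and Lama3 had 5 and 15, higher in endothelial-like cells at -1.71.

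Of 8 basement membrane collagens, the network to which nidogens bind laminin, 4 were measured. Col4a1 (log2 0.01), Col4a2 (-0.16) and Col18a1 (0.17) were called in neither direction between stromal-like and endothelial-like cells, and Col15a1 was higher in the latter at -3.03. All 4 measured (background 6.96%) were higher in arterial-like than in sinusoidal-like cells. Col4a1 was 550 against 151 CPM (log2 1.86), Col4a2 441 against 118 CPM (1.90), Col18a1 66.1 against 3.60 CPM (4.20) and Col15a1 25.5 against 0.670 CPM (5.25). The median of the 4 was 3.05, beside 0.14 over all measured genes. In osteolineage-like cells Col4a1 (-1.53) and Col4a2 (-1.13) were lower than in stromal-like cells, as were the nidogens.

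Of 14 other basement membrane proteins 11 were measured, 4 higher in the stromal-like and 6 higher in the endothelial-like cells (median -1.11, beside 0.10 over all measured genes). The stromal ones included Fbln1 (fibulin 1, log2 11.03, 8.55 to 16.33, from 2281 and 1 UMIs) and the calcium-binding matrix proteins Smoc2 (9.69, 7.21 to 14.99, from 901 and 1 UMIs) and Smoc1 (9.28, 7.42 to 12.33, from 1356 and 2 UMIs). The endothelial ones included Hmcn1 (hemicentin 1), from 5 and 885 UMIs at -7.59.

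Laminin receptors are the cell-surface partners of these chains. Of 8, 7 were measured, 2 higher in the stromal-like and 3 in the endothelial-like cells (median 0.49). Itga6, the integrin alpha 6 subunit that pairs with beta subunits to bind laminin, had 7 UMIs in the stromal-like and 860 in the endothelial-like cells (log2 -7.07, -8.39 to -6.02). Itga3 (-2.49) and the alpha 5 chain receptor Bcam (-1.49) were also higher in endothelial-like cells. Dag1, the precursor of dystroglycan, was higher in stromal-like cells at 1.07. In arterial-like against sinusoidal-like cells Bcam (log2 2.67), Itga3 (1.06) and Cd151 (1.06) were higher, 3 of 6 measured (background 6.96%). In osteolineage-like cells Dag1 (-1.34) and Cd151 (-1.71) were lower than in stromal-like cells.

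Of the receptors of perlecan and agrin, 7 of 9 measured (background 21.3%) were higher in the stromal-like and 2 (background 17.6%) higher in the endothelial-like cells (median 1.87). Lrp4, the agrin receptor of muscle, was higher in stromal-like cells at log2 3.61, and the collagen and perlecan receptor subunit Itga2 was higher in endothelial-like cells at -5.55 (-8.62 to -3.66, from 2 and 86 UMIs). The syndecans Sdc2 (10.64, 9.09 to 12.92, from 5228 and 3 UMIs) and Sdc1 (6.50, from 4360 and 44 UMIs) led the list. Within LepR_tdT, Lrp4 had 171 UMIs in osteolineage-like and 307 in stromal-like cells, at 148 against 22.0 CPM, log2 2.75 (2.47 to 3.03). Agrn itself was called in none of the comparisons made.

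Cell-surface heparan sulphate proteoglycans, which unlike perlecan and agrin stay on the membrane, were raised in stromal-like cells in 7 of 8 measured cases, with a median log2 ratio of 6.63. The other 1 was higher in endothelial-like cells. Besides Sdc1 and Sdc2 the 7 included the glypicans Gpc4 (10.29, 7.81 to 15.59, from 1363 and 1 UMIs), Gpc1 (6.75) and Gpc6, which had 2252 UMIs in the stromal-like and 0 in the endothelial-like cells (at least 9.43). The secreted proteoglycan Hspg2, at -3.24, had the opposite sign to these 7.

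Enzymes that build and edit heparan sulphate were divided, with 2 of 14 measured higher in the stromal-like and 5 in the endothelial-like cells (median 0.16). Sulf1, which removes sulphate groups outside the cell, was higher in stromal-like cells at 5.46, and its relative Sulf2 was higher in endothelial-like cells at -2.93. Hs3st1, a sulphotransferase of the heparan chain, was higher in endothelial-like cells at -6.64, and Extl2 higher in stromal-like cells at 2.76. Sulf2 (-1.06) and Hs3st1 (-1.53) were in turn lower in arterial-like than in sinusoidal-like cells.

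Of the enzymes that add the laminin-binding sugar to dystroglycan, 2 of 8 measured were higher in stromal-like cells, Pomk at 2.25 and B4gat1 at 1.44, and none in endothelial-like cells (median 0.50). Of the proteases that cut basement membrane proteins, 2 of 8 measured were higher in the stromal-like and 3 in the endothelial-like cells (median -0.52). Bmp1, a processing protease of matrix proteins, was at 6.40 and the gelatinase Mmp2 at 4.39 on the stromal side, and the membrane-bound Mmp15 at -4.70 and the lysosomal Ctsl at -2.59 on the endothelial side. Within LepR_tdT 4 of 8 measured proteases were higher in osteolineage-like cells (background 4.63%), Mmp2 (3.75), Mmp9 (3.72), Bmp1 (1.31) and Mmp14 (1.28). Adamts1 was higher in stromal-like cells at -1.10, and 3 passed in neither direction.

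Patterns over classes were compared by Pearson's r of log2(CPM + 5) over the 13 classes and clusters of at least 50 cells, which share 2 libraries and differ in depth, so r is given as a description. Among the members Lamb1 went with Nid2 (r = 0.90) and Lama4 (0.86), and Lama4 with Nid2 (0.81). Lama5 went with Hspg2 (0.81) and Nid1 (0.70), and Hspg2 with Nid1 (0.71). Lamb2 and Lamc1 were at 0.82, and Lamb1 was at -0.62 with both Lama5 and Hspg2.

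Of 7039 genes with at least 500 UMIs in these classes, the pattern most like Lamb1 was that of Kitl, the ligand of the Kit receptor (r = 0.987), then Obsl1 (0.973) and St5 (0.967). Hspg2 was most like Rmnd5a (0.983), Stim2 (0.970) and Ypel2 (0.968), and Lama5 most like Tspan14 (0.971), Ets1 and Dcbld1 (both 0.964). Lamc1 was most like Zfp36l1 (0.974), Lamb2 like Skiv2l (0.956), Nid2 like Slc6a6 (0.951), Agrn like Pank3 (0.95), Nid1 like Ece1 (0.946) and Lama4 like Cald1 (0.938). The number of genes above r = 0.95 was 12 for Lamb1, 9 for Lama5 and 7 for Hspg2, and 0 for Lama4 and Nid1.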

How the data were processed

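The deposited matrix holds raw UMI counts per gene and barcode, and the authors' deposited cell table gives each cell's library, UMI count and gene count, which matched recomputed values for all cells. Cell Ranger 2.1.1, Seurat 2.3.4 and mm10 are named per the submitters' processing notes, with no roles. The 9 members and the gene lists were chosen with earlier results of these data known.

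Cells were clustered on 1570 variable genes (listed, mitochondrial and tdTomato genes removed) scaled to 10000 UMIs, with 30 principal components, 15 neighbours and Leiden resolution 0.5 (scanpy 1.11.5). A name needed 3 markers at 1.5-fold. A cluster still stayed unnamed where another marker set had more genes among its 10 leading genes, or where at least 3 of those were mitochondrial. Shallow clusters with no marker of their own set among the leading genes were also left unnamed. Scrublet marked 1 LepR_tdT and 0 EC cells, so it did not work. Removal of cells with both marker sets was therefore added after seeing the data, as were the Kit-led, stress-led, fibroblast-like and pericyte-like comparisons.

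Ratios of class sums carry conditional exact binomial intervals, sums exact Poisson and shares exact Clopper-Pearson intervals (scipy 1.17.1). Only the ratios, their intervals and the calls were tested on simulated data. Those data were Poisson counts, so the test covers counting error only. A ratio against 0 UMIs was computed against 3 UMIs. Named genes were the members, up to 4 genes of each list with the most extreme stromal to endothelial ratio, and the genes with the most similar pattern. Cd151, Mmp9, Mmp14 and Adamts1, and the values of listed genes within a library, were chosen after they were seen. Alternatives were TMM scaling (edgeR 4.0.16), resolution 1.0, listed genes kept in the clustering, cells with at least 1000 UMIs, subtraction of free RNA at 10% of UMIs, and no stress-led cluster. Of 27999 identifiers 27645 were found in GENCODE M21.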

Additional observations from a re-analysis of the deposited data

How the results depend on the processing

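Over the alternatives run, 149 of 149 called ratios of members kept their direction and 144 stayed called. Each called gene was counted once for every comparison and alternative, so the same ratio enters several times from largely the same cells. The 144 include the Nid2 ratio within LepR_tdT without mixed cells, where 1 class had 0 UMIs and the bound (-0.53) is under 2-fold. With clusters at resolution 1.0 the osteolineage-like comparison gave 0 genes higher in osteolineage-like and 1 higher in stromal-like cells, in place of 1 and 3, and the cause was not tested. TMM scaling left 1 gene higher in pericyte-like cells in place of 2. Subtracting free RNA gave a Lamb1 share of beta chain UMIs of 3.80% in endothelial-like and 0% in sinusoidal-like cells, by the construction of that alternative. Without the stress-led cluster, Lama4 was 1.76 and Nid2 2.78 on the log2 scale in stromal-like over endothelial-like cells. No ratio reversed among those called. Leaving out a replicate was not possible with 1 library per group. No paired analysis was possible because each group has 1 library and the replicate numbers are only names. Depth limits the classes under 100 cells, where a single UMI equals 3.96 CPM (fibroblast-like), 5.11 CPM (LepR_tdT endothelial-like) or 14.2 CPM (pericyte-like).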

Other observations

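The shallow clusters, which entered the whole-library comparison and the pattern correlations but no comparison between named classes, also carried these genes. In the EC library an unnamed cluster of 725 cells led by mitochondrial genes (median 578 UMIs, 12.2% mitochondrial UMIs) held Hspg2 at 513.7 CPM (453.5 to 579.7), above the 302.5 CPM of endothelial-like cells, and Nid1 at 281.3 CPM (237.2 to 331.1). Lamb1 had 1 UMI there. In LepR_tdT an unnamed cluster of 270 cells (median 596.5 UMIs, 17.1% mitochondrial UMIs) held Lamb1 at 215 CPM (154 to 292), Agrn at 83.9 CPM (48.0 to 136) and Lamb2 at 115 CPM (72.3 to 175), each above the stromal-like level. Its erythroid markers summed to 5823 CPM (5 of 8 genes with UMIs) against 187 CPM in stromal-like cells, and its stromal markers to 13922 against 22305 CPM. Another of 350 cells (median 430.5 UMIs) held Lamb1 at 76.8 CPM (46.3 to 120) and Nid2 at 12.1 CPM (2.50 to 35.4). The part of low depth, mitochondrial share and erythroid RNA in these levels was not tested.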
